A study of Ictalurus punctatus x Ictalurus furcatus and Ictalurus furcatus and Ictalurus punctatus with 8 samples.

Results

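The genes described here are fasn, scdb, aclya and thrsp, 4 of the 13444 genes in the liver expression table of the study. They were picked by name with their CPM values across the types and between the livers already known, among them the gap between the channel catfish livers in fasn, scdb and aclya. These values across the types and between the livers are therefore given as a description, with no test.

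RNA was sequenced from 8 livers, 2 fish from each of 4 genetic types, all 12 months old. PC was channel catfish (Ictalurus punctatus) and PB was blue catfish (Ictalurus furcatus). F1BC was the hybrid of a blue catfish female and a channel catfish male, and F1CB the reciprocal hybrid of a channel catfish female and a blue catfish male. No treatment is named, and the types were kept in separate tanks, so type and tank cannot be told apart. All reads were mapped to the channel catfish genome, including those of blue catfish. Values are in CPM, the reads of a gene scaled to the same total in every library, and the 8 libraries summed to between 996838 and 998652. No read counts came with these values. The study lists sequencing yields of the liver samples in its supplement, which were not used here. How far the 2 fish of a type lie apart is thus the only measure of precision used. Nothing in the labels says how the 2 fish of a type were handled beyond being separate biological replicates, so adjusted p-values measure the spread between these fish.

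Fatty acid synthesis turns surplus carbohydrate into fat, and in fish the liver is a main site of it. ATP citrate lyase splits citrate into acetyl-CoA in the cytosol, acetyl-CoA carboxylase makes malonyl-CoA from it, and fatty acid synthase builds palmitate with reducing power from NADPH. Stearoyl-CoA desaturase then places the first double bond, which makes the fatty acid ready for storage or for membranes. In mammals the genes of this pathway are switched on after feeding through the transcription factors SREBP-1 and ChREBP, and thyroid hormone responsive protein (Spot 14) is a small acidic protein that moves with them.

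The supply of acetyl-CoA comes first. The row aclya (ENSIPUG00000017257, 4465 bases of transcript) is annotated as an ATP citrate lyase gene. Its CPM was 20.2 and 255.8 in the PC livers (138 ± 167, mean ± SD, n = 2), 59.19 and 58.98 in the PB livers (59.09 ± 0.149), 193.5 and 71.1 in the F1BC livers (132 ± 86.6) and 154.1 and 116.5 in the F1CB livers (135 ± 26.6). The lowest and the highest of all 8 livers were thus both channel catfish. The PB livers were nearly equal, and all 4 hybrid livers lay above both of them. The CPM means of PC, F1BC and F1CB differed by at most 1.04-fold, far inside the spread between livers. On the log2 scale used below, the means of both hybrids lay above that of PC. These values are of the aclya row alone. Another row, aclyb, is counted with the rest of the pathway below, where it passed the threshold in PC vs PB, higher in PB.

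The synthase itself, fasn (ENSIPUG00000011606, 7506 bases), varied the most. Its CPM was 17.98 and 546 in PC (282 ± 373), 63.9 and 8.69 in PB (36.3 ± 39.1), 448.1 and 515.8 in F1BC (482 ± 47.9) and 465.2 and 189.1 in F1CB (327 ± 195). The highest liver, PC replicate 2, carried 62.8 times the CPM of the lowest, PB replicate 2. PC replicate 1 lay between the PB livers, while PC replicate 2 lay above every hybrid liver. All 4 hybrid livers exceeded both PB livers, the lowest of them by 2.96-fold over the higher PB liver.

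The desaturase scdb (ENSIPUG00000024654, 3839 bases) followed the same order of livers at the bottom and at the top. Its CPM was 122 and 1522 in PC (822 ± 990), 136.2 and 72.8 in PB (104 ± 44.8), 1214 and 1251 in F1BC (1233 ± 26.6) and 865 and 382.1 in F1CB (624 ± 341). Again PC replicate 1 lay between the PB livers and PC replicate 2 above all others. The F1BC livers agreed to within 1.03-fold and both lay above both F1CB livers, which in turn lay above both PB livers. Fatty acid desaturase 2 genes, which make polyunsaturated rather than monounsaturated fatty acids, are described with the rest of the pathway.

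The row thrsp (ENSIPUG00000021040, 417 bases) behaved differently. Its symbol is that of Spot 14, while its description in the table reads mid1-interacting protein 1A-like, a name of the closest relative of Spot 14. Its CPM was 6418 and 7073 in PC (6745 ± 464), 4441 and 2651 in PB (3546 ± 1266), 15822 and 11493 in F1BC (13657 ± 3061) and 4613 and 2511 in F1CB (3562 ± 1486). It was the only member whose PC livers were alike, and the only one in which the reciprocal hybrids took opposite sides of channel catfish: both F1BC livers lay above, and both F1CB livers below, the 2 PC livers. The F1CB and PB livers overlapped.

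**Figure D1:**
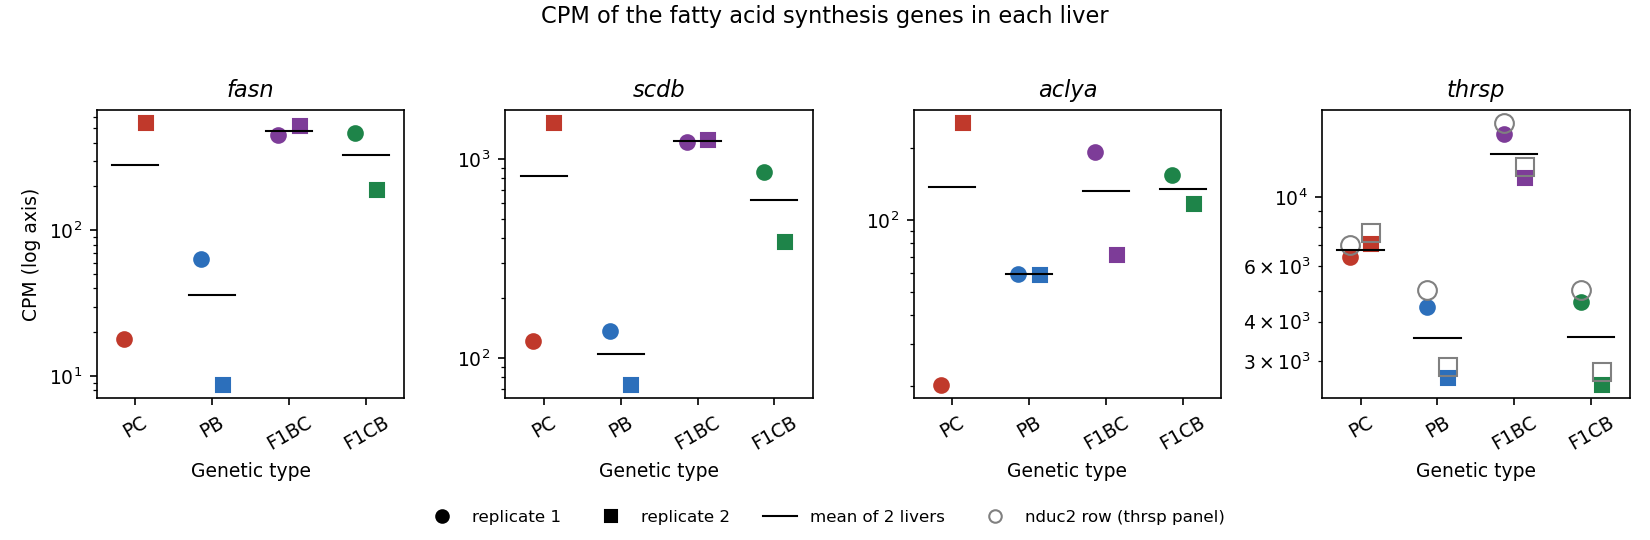
CPM (log axis, a different range in each panel) of fasn, scdb, aclya and thrsp in each of the 8 livers, by genetic type. Circles are replicate 1, squares replicate 2, black lines the mean of the 2 livers, and open grey symbols in the thrsp panel the nduc2 row; for fasn, scdb and aclya the PC livers take both ends or nearly both ends of the range, whereas for thrsp the F1BC livers stand above all others and each nduc2 value sits just above its thrsp value.

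The high values of thrsp need a caution that lies in the table itself. The row next to it, nduc2 (ENSIPUG00000021028, 2674 bases, annotated as a subunit of NADH dehydrogenase, complex I of the respiratory chain), held 7003 and 7647 CPM in PC, 5049 and 2879 in PB, 17201 and 12418 in F1BC and 5047 and 2775 in F1CB. The ratio of thrsp to nduc2 stayed between 0.880 and 0.925 in all 8 livers, with an SD of the log2 ratio of 0.02. Of 6945 pairs of neighbouring rows with at least 1 CPM in every library, 33 (0.475%) were this proportional (SD under 0.05). The other 35 complex I subunits in the table, chosen for this comparison after the values were seen, had a median CPM between 20.05 and 43.7 in the 8 libraries, and the highest of them, ndufb10, reached 1129 to 2899. The nduc2 row lay 1.13 to 10.3 times above ndufb10 of the same library. Whether reads were counted by strand is not stated, so the reads of the 2 rows cannot be told apart. The pattern of thrsp across the livers described below holds equally for nduc2. The CPM, the length and so the value per kilobase of nduc2 differ.

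Levels can be compared between genes only per length. Per kilobase of transcript, scdb held 19.0 to 396 CPM, fasn 1.16 to 72.7 and aclya 4.53 to 57.3 over the 8 livers, so that the desaturase was the most abundant of the 3 in every liver. The thrsp row held 6022 to 37942 CPM per kilobase, a value that its short annotated length raises. It took 0.252% to 1.58% of a library, and its rank among all genes by CPM ran from 60 in F1CB replicate 2 to 6 in F1BC replicate 1. The rank of fasn ran from 6663 in PB replicate 2 to 262 in F1BC replicate 2.

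The 2 livers of a type differed most in channel catfish. On the scale of log2(CPM + 0.5), PC replicate 2 exceeded replicate 1 by 4.89 for fasn, a 30.4-fold difference in CPM. The gap was 3.64 for scdb (12.5-fold) and 3.63 for aclya (12.6-fold), but 0.14 for thrsp. Among the 13420 genes with a mean above 1 CPM in at least 1 type, 6 were higher in PC replicate 2 by more than fasn was, and 34 and 35 by more than scdb and aclya were. In all, 13.3% of genes differed by more than 1.5 between the PC livers, 7.26% with replicate 2 higher, and nothing is read from the 3 members past this size, which were picked with these values known.

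In blue catfish the 4 members were all higher in replicate 1, by 2.81 for fasn (7.35-fold), 0.90 for scdb, 0.74 for thrsp and 0.01 for aclya. Only fasn passed 1.5, which 8.82% of genes did, 2.85% with replicate 1 higher. In F1BC replicate 2 was higher by 0.20 for fasn and 0.04 for scdb, and replicate 1 by 0.46 for thrsp and 1.44 for aclya. The aclya difference lay past the 95th percentile of all genes (1.19), with 331 of 13420 genes higher in replicate 1 by more. There aclya parted from the other enzymes, and no member passed 1.5, against 3.23% of genes. In F1CB replicate 1 was higher for all 4, by 1.30 for fasn, 1.18 for scdb, 0.88 for thrsp and 0.40 for aclya, with none past 1.5 against 6.52% of genes (under median-of-ratios scaling fasn was, at 1.55). There fasn and scdb lay past the 95th percentile of all genes (0.998), with 364 and 457 genes higher in replicate 1 by more. The ratio of scdb to fasn showed how unevenly these genes moved. It was 1.86 to 2.79 in 6 livers, but 6.79 in PC replicate 1 and 8.38 in PB replicate 2, the livers with the least fasn, where fasn was lower by more than scdb.

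**Figure D2:**
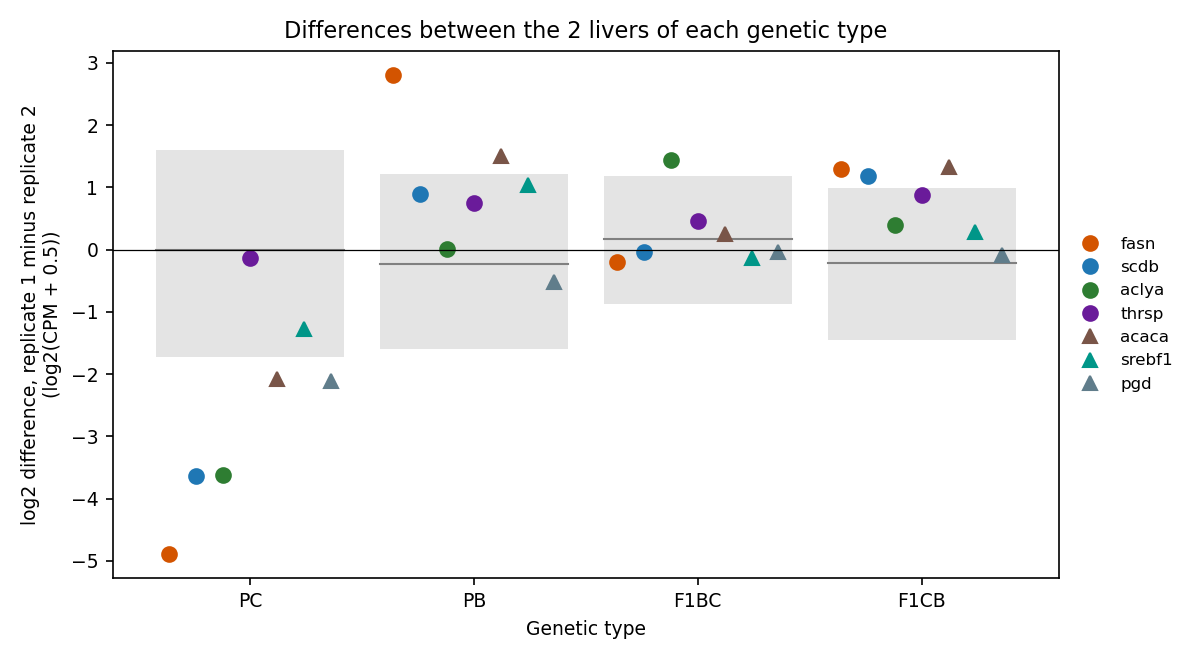
Difference between the 2 livers of each type, replicate 1 minus replicate 2, of log2(CPM + 0.5). Circles are the 4 members, triangles the partner genes acaca, srebf1 and pgd, which had r values with fasn of 0.89, 0.90 and 0.84. Grey boxes span the 5th to the 95th percentile of the 13420 genes and the grey line is their median. In PC fasn, scdb and aclya lie far below the box (-4.89, -3.64 and -3.63), while thrsp lies inside it in every type. Partner genes not drawn include acss2 (1.76 in PC), insig1 (1.09) and mlxipl (0.82). Of the 85 pathway rows, 35 were higher in PC replicate 1 and 50 in PC replicate 2.

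Markers of other cells also differed between the livers of a type. The tissue label held: 20 rows of hepatocyte marker genes summed to between 179335 and 283978 CPM. Of 12 exocrine pancreas marker rows, 10 were higher in PC replicate 2, 11 in PB replicate 2, 11 in F1BC replicate 1 and 10 in F1CB replicate 2. Trypsin (prss1) was 155.1 and 1730 CPM in PC, 633.4 and 1173 in PB, 521.7 and 90.8 in F1BC and 262.2 and 1533 in F1CB. It thus moved with fasn in PC and against it in PB, F1BC and F1CB, and with aclya in PC and F1BC. Summed pancreas markers ran from 1594 to 8797 CPM, with the highest sum in PC replicate 1. That sum was led by PNLIPRP2 (6529 and 2794 CPM in PC) and col (1976 and 900), which ran against prss1 in PC. Adipocyte markers (5 rows, led by lpl) ran from 209.3 to 1519 CPM, red blood cell markers from 484.4 to 2205 and macrophage markers from 40.2 to 304.2. Of 17 endothelium and stroma rows, 14 were higher in PC replicate 2, 12 in PB replicate 2, 15 in F1BC replicate 1 and 12 in F1CB replicate 2. Of 10 red blood cell rows, the same livers were higher in 8, 10, 8 and 7. Of 10 macrophage rows, 7 were higher in PC replicate 2, 10 in PB replicate 2, 10 in F1BC replicate 2 and 8 in F1CB replicate 1. The adipocyte genes adiponectin and perilipin 1 were not among the rows matched. The part of these cells in the members' values was not tested, and in bulk tissue fewer cells of a type and less RNA per cell cannot be told apart.

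Across the types, each difference is given as the first type minus the second on the log2(CPM + 0.5) scale. The median of all genes was 0.37 for PC minus F1BC, 0.22 for PC minus F1CB, 0.35 for PB minus F1BC, 0.18 for PB minus F1CB, 0.15 for F1CB minus F1BC and 0.02 for PC minus PB. These medians lay between -0.02 and 0.01 when libraries were scaled by the median of ratios, and the members' differences are read against them. The comparison with the least overlap was blue catfish with F1BC. There the difference was -4.31 for fasn, -3.62 for scdb, -1.97 for thrsp and -0.98 for aclya, and the livers of the types did not overlap for any of the 4 genes, as for 56.3% of all genes, with F1BC above PB in 16% of all genes. Scaled by the median of ratios, they were -4.67, -3.99, -2.35 and -1.35 in the same order.

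Blue catfish and F1CB differed by -3.61 for fasn, -2.52 for scdb and -1.17 for aclya, without overlap, and by 0.01 for thrsp, whose livers overlapped. Of all genes 46.3% did not overlap, 17% with F1CB above PB. Thus fasn, scdb and aclya were higher in each of the 4 hybrid livers than in each of the 2 blue catfish livers, a pattern that 9.71% of all genes shared. The thrsp row did not share it.

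For the 3 enzymes the difference from channel catfish moved with the PC liver that was kept. PC minus PB was 2.05 for fasn, 2.11 for scdb and 0.29 for aclya, with overlapping livers, as in PC vs F1BC and PC vs F1CB. When 1 liver was left out in turn, the fasn difference ran from -0.40 without PC replicate 2 to 4.49 without PC replicate 1, and that of aclya from -1.52 to 2.105. For scdb the difference ran from 0.29 to 3.93, so that PC was higher whichever liver was left out. PC minus F1BC was -2.26 for fasn, and it became 0.18 without PC replicate 1. PC minus F1CB was -1.56 and became 0.88 without the same liver. For scdb, PC minus F1BC was -1.51 and ran from -3.33 to 0.30, and PC minus F1CB was -0.41 and ran from -2.23 to 1.40. For aclya, PC minus F1BC was -0.69 and PC minus F1CB -0.88, and both changed sign without PC replicate 1, to 1.12 and 0.93. The direction thus turned with the PC liver that was kept for fasn and aclya in all 3 comparisons and for scdb in those with the hybrids, but not for scdb in PC vs PB. Hybrid livers turned it too: scdb in PC vs F1CB became 0.17 without F1CB replicate 1, and aclya in PC vs F1BC became 0.03 without F1BC replicate 1. The direction also depended on the kind of mean. By means of CPM, PC lay above F1BC by 1.04-fold and above F1CB by 1.02-fold for aclya, and above F1CB by 1.32-fold for scdb. On the log2 scale these differences were negative.

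For thrsp the differences with channel catfish were 0.97 (PC minus PB), -1.001 (PC minus F1BC) and 0.99 (PC minus F1CB), and the livers did not overlap. Without overlap, leaving out 1 liver cannot turn the direction, so that check adds nothing here. Of all genes, 55.8%, 52.6% and 51% had livers that did not overlap in these comparisons, in the same order. The comparisons share the PC livers, so they are not independent of each other. F1CB and F1BC, the same cross with the sexes of the parents exchanged, differed by -1.99 for thrsp, -1.10 for scdb, -0.70 for fasn and 0.19 for aclya (F1CB minus F1BC). The livers did not overlap for thrsp and scdb, against 46.1% of all genes.

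**Figure D3:**
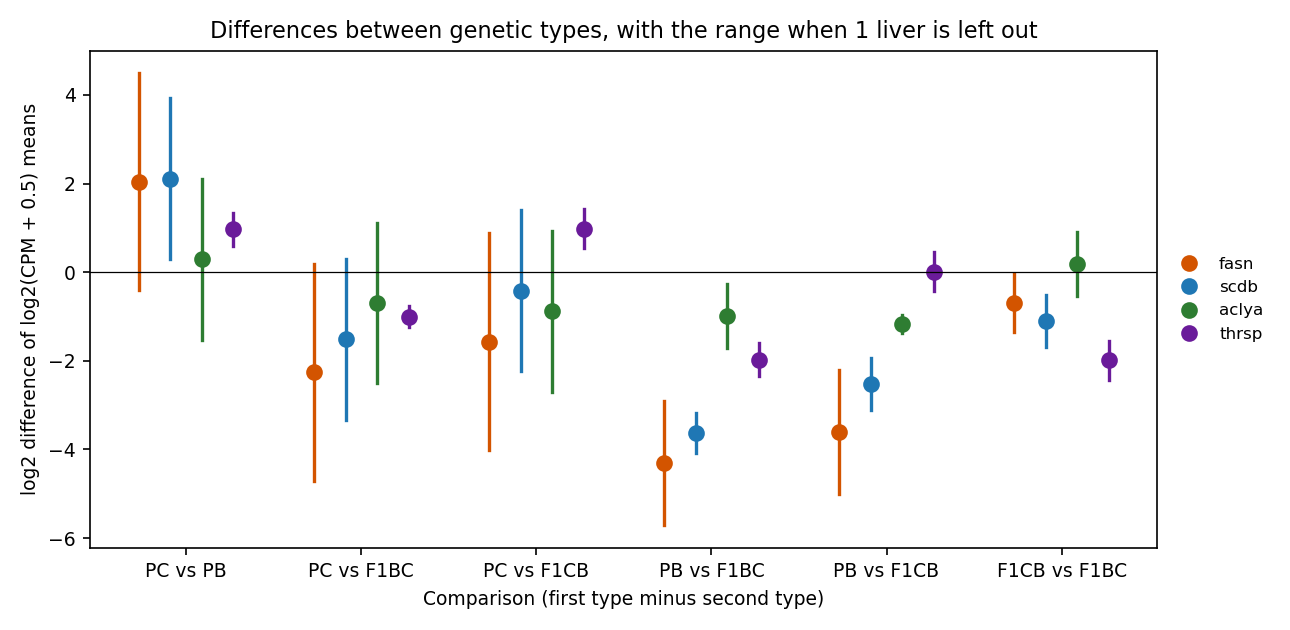
Log2 difference of each member in the 6 comparisons, first type minus second type, on the log2(CPM + 0.5) scale. Points are the values from all 8 livers and lines the range when each liver is left out in turn. Every line of fasn, scdb and aclya that involves PC is long, and for fasn it runs from -0.40 to 4.49 in PC vs PB. The lines of PB vs F1BC stay below 0 for all 4 genes, as they must where livers do not overlap.

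The study called a gene transgressive in a hybrid when its mean was at least 20% above or below both parental means. By the means alone, F1BC was above the higher parent, PC, by 1.71-fold for fasn, 1.5-fold for scdb and 2.02-fold for thrsp, as 4.31% of all genes were by more than 1.2-fold. No F1BC liver exceeded the highest parental liver for fasn (546 CPM) or scdb (1522 CPM), whereas both did for thrsp (7073 CPM). F1CB stayed between the parental means or within 1.2-fold of them for all 4 genes, while 7.03% of all genes were above 1.2-fold of the higher parent.

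Over the 8 livers fasn and scdb went together, with a Pearson r of 0.97 (Spearman 0.98) on the log2 scale. The r was 0.78 for fasn and aclya, 0.77 for scdb and aclya, 0.64 for scdb and thrsp, 0.53 for fasn and thrsp and 0.21 for aclya and thrsp. With the mean of each type removed, fasn and scdb had an r of 0.96, a value that holds the gap between the PC livers known when the members were picked. Without the PC livers (n = 6) the r was 0.96 for fasn and scdb, 0.68 for fasn and aclya and 0.70 for scdb and aclya. It was 0.75 for scdb and thrsp, 0.65 for fasn and thrsp and 0.38 for aclya and thrsp. These are descriptions over 8 points that share libraries and types.

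The genes with a pattern most like each member were ranked by the same r among 5940 genes with a mean above 10 CPM. For fasn they were scdb, park7 (0.95), tmem86b (0.94), ca6 (0.94), a carbonic anhydrase, and fndc3bb (0.94). For scdb they were fasn, epdl2 (0.95), tmem86b (0.94), ogal (0.93) and ccdc135 (0.92). The gene epdl2, ependymin-like, ran from 40.4 CPM in PB replicate 2 to 351 in PC replicate 2, the same extremes as fasn and scdb.

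For aclya the closest were rab1aa (0.93), mat2aa (0.93), which makes the methyl donor S-adenosylmethionine, rab7a (0.92), nradd (0.91) and wwox (0.91). Each of these 5 had its lowest value in PC replicate 1, as aclya did. For thrsp, with nduc2 left aside, they were slc16a9b (0.96), zfp36l1a (0.93), cd37 (0.93), afp4 (0.92) and ENSIPUG00000011803 (0.91), each highest in F1BC replicate 1. Between 9 and 15 genes had an r over 0.9 with a member. One table neighbour of scdb was among these: wnt8b, a developmental signal, had an r of 0.92 with scdb and held 10.2 and 121.6 CPM in PC, 1.48 and 1.49 in PB, 77.7 and 43.4 in F1BC and 63.9 and 45.9 in F1CB. Of neighbouring rows, 4.38% had an r of at least 0.9, and reads shared between the 2 rows were not tested.

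The rest of the pathway was followed with a list of 116 gene symbols in 3 groups, of which 82 were in the table, in 85 rows that were all tested: 36 for synthesis and desaturation, 14 for the supply of NADPH and 35 for regulators. The members are not counted in it. The pairwise comparisons were fitted in limma over all genes, and the threshold was an adjusted p under 0.05 with a log2 difference over 1.5 in size. Between channel and blue catfish, 18 of the 85 (21.2%) passed the threshold, beside 15.8% of all genes, 5 higher in PC and 13 higher in PB. That split rested on 1 liver, since without PC replicate 1 it was 10 higher in PC and 8 in PB, and the count fell to 11 without PB replicate 2. The median difference was 0.03, beside 0.02 over all genes. By group, 7 of 36 synthesis genes, 3 of 14 NADPH genes and 8 of 35 regulators passed.

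The carboxylase that feeds fasn, acaca, passed in no comparison with all 8 livers, and in 1 of 8 fits of PC vs PB with a liver left out. Its CPM was 54.7 and 231.5 in PC, 74.4 and 25.8 in PB, 118.3 and 99.6 in F1BC and 253.5 and 101.2 in F1CB. Its livers were ordered within each type as those of fasn were except in F1BC, and its r with fasn was 0.89. The regulator srebf1, the gene of SREBP-1, had an r of 0.90 with fasn and held 28.8 and 70.3 CPM in PC, 25.6 and 12.2 in PB, 41.6 and 45.5 in F1BC and 54.6 and 44.7 in F1CB. Both srebf1 and acaca thus had their lowest value in PB replicate 2, as fasn and scdb had. By contrast mlxipl, the gene of ChREBP, had an r of -0.01 with fasn and held 54.3 and 30.5 CPM in PC and 12.2 to 26.5 in the other types.

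The suppliers of acetyl-CoA and NADPH showed differing patterns. The phosphogluconate dehydrogenase pgd, a source of NADPH, held 69.2 and 301.7 CPM in PC, 77.1 and 110.5 in PB, 246.4 and 254.2 in F1BC and 174.8 and 186 in F1CB. Its r was 0.84 with fasn, 0.91 with scdb, 0.84 with aclya and 0.44 with thrsp. The malic enzyme me1, another source, held 0.92 and 1.51 CPM in PC, 13.2 and 31.6 in PB, 6.33 and 11.1 in F1BC and 10.8 and 43.7 in F1CB. It was lower in PC, with a log2 difference PC minus PB of -3.63 ± 0.65 (SE; limma, adjusted p = 0.00352) and PC minus F1CB of -3.72 ± 0.65 (limma, adjusted p = 0.0165). The first call held with any 1 liver left out, and the second was lost without PC replicate 1 or F1CB replicate 2 (highest adjusted p = 0.183, limma). The cytosolic isocitrate dehydrogenase idh1 showed the same: 61.3 and 146.7 CPM in PC, 620.8 and 576.6 in PB, 429.4 and 318.6 in F1BC and 555.8 and 500.1 in F1CB. It was lower in PC, with PC minus PB of -2.65 ± 0.43 (limma, adjusted p = 0.00201) and PC minus F1CB of -2.47 ± 0.43 (limma, adjusted p = 0.0165), the second call being lost without PC replicate 1 or either F1CB liver (highest adjusted p = 0.144). Unlike fasn, both genes had their highest values outside channel catfish. The acetyl-CoA synthetase acss2 ran against fasn (r = -0.55), with 49.9 CPM in PC replicate 1 and 14.4 in PC replicate 2.

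Elongases and desaturases differed by gene. The elongase elovl6, which extends palmitate, held 593.5 and 1078 CPM in PC, 293.4 and 418.1 in PB, 1047 and 534.8 in F1BC and 1134 and 1238 in F1CB, and passed in no comparison with all 8 livers as scaled here. In PB vs F1CB it passed under median-of-ratios scaling and in 2 of 8 fits with a liver left out, and in PC vs PB in 1 of 8. Other partner genes passed in no comparison with all 8 livers: slc25a1, which exports citrate from mitochondria, held 558.3 to 964.5 CPM over the 8 livers, acss2l 90.7 to 375.9, elovl5 18.7 to 81.0, and dgat2, which adds the last fatty acid of a triglyceride, 98.01 to 386.9. Of these, acss2l had the highest r with fasn (0.75) and with thrsp (0.81), while its r was 0.73 with scdb and 0.29 with aclya. The row elovl8b, described as an elongase of very long chain fatty acids, held 18.5 and 16.9 CPM in PC against 187.5 and 106.6 in PB, 70.2 and 72.4 in F1BC and 70.4 and 83.8 in F1CB. It was lower in PC than in each other type, with PC minus PB of -2.96 ± 0.40 (limma, adjusted p = 0.000644), PC minus F1BC of -1.98 ± 0.40 (0.0426) and PC minus F1CB of -2.09 ± 0.40 (0.0255), and it was the only list gene that passed in PC vs F1BC, beside 0.805% of all genes. The PB call held with any 1 liver left out, the F1BC call was lost without PC replicate 1 or any 1 hybrid liver (highest adjusted p = 0.378, limma) and the F1CB call without PC replicate 1 or either F1CB liver (highest adjusted p = 0.214, limma). One fads2 row (ENSIPUG00000008744) was higher in PC than in PB by 3.29 ± 0.68 (limma, adjusted p = 0.00755), with 12.9 and 7.67 CPM against 1.76 and 0.01, a call lost without PB replicate 2 (adjusted p = 0.0629). The other (ENSIPUG00000008775) held 118.8 and 82.8 CPM in PC and 55.5 and 8.87 in PB, and its difference of 2.12 ± 0.66 (limma, adjusted p = 0.0442) passed in 1 of 8 fits with a liver left out, that without PB replicate 1 (adjusted p = 0.0039), and reached an adjusted p of 0.323 in the others, and it did not pass under median-of-ratios scaling; reads shared between the 2 fads2 copies were not tested.

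Among the regulators, the insulin receptor substrate irs2a, which passes the insulin signal on to the pathway, had the largest change in PC vs PB. It held 38.7 and 29.5 CPM in PC, 507.7 and 416.6 in PB, 43.4 and 24.8 in F1BC and 130.2 and 274.2 in F1CB. It was higher in PB, with PC minus PB of -3.75 ± 0.45 (limma, adjusted p = 0.000308) and PB minus F1BC of 3.79 ± 0.45 (limma, adjusted p = 0.00103), in 8 of 8 fits with a liver left out. It was also higher in F1CB than in PC, with PC minus F1CB of -2.47 ± 0.45 (limma, adjusted p = 0.0197), a call lost without F1CB replicate 2 (adjusted p = 0.221). Its r was -0.50 with fasn, -0.67 with scdb, -0.15 with aclya and -0.81 with thrsp.

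Of the 4 list genes that passed in PB vs F1BC, beside 2.28% of all genes, all were regulators and all were higher in PB: irs2a, its paralog irs2b, USF2 and insig1, which holds the SREBP proteins back in the endoplasmic reticulum. A separate row of the list, usf2, passed in no comparison with all 8 livers. Without PB replicate 1, 3 list genes passed, 1 higher in PB and 2 higher in F1BC. The insig1 row held 65.1 and 24.1 CPM in PB, 3.23 and 4.75 in F1BC, 18.1 and 8.22 in PC and 14.2 and 48.9 in F1CB, with PB minus F1BC of 3.18 ± 0.65 (limma, adjusted p = 0.0254). For irs2b (1.79 ± 0.41, limma, adjusted p = 0.0452) and USF2 (2.70 ± 0.61, limma, adjusted p = 0.0413) the call was lost under median-of-ratios scaling. Each of these 3 calls was also lost without any 1 PB or F1BC liver, and that of irs2b without either F1CB liver as well (highest adjusted p = 0.16 for insig1, 0.321 for irs2b and 0.228 for USF2, limma). Blue catfish had the highest mean of irs2a, irs2b, insig1 and USF2, which were named for being higher in PB than in F1BC. For insig1 the PB and F1CB livers overlapped. A relation of these genes to fasn and scdb, whose means were lowest in PB, was not tested. The nuclear receptor gene rxrab was higher in PC than in PB by 3.64 ± 0.70 (limma, adjusted p = 0.00505), with 9.69 and 5.003 CPM against 0.06 and 0.14.

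In PC vs F1CB 4 list genes passed, beside 2.03% of all genes, and all 4 (elovl8b, me1, idh1 and irs2a) were higher in F1CB. This was not so in every fit: 2 others higher in PC passed with a pseudocount of 1 and without either PB liver, 2 of 8 calls were higher in PC without PC replicate 2, and 1 of 2 without PC replicate 1 and in the fit of the 2 types alone. With the replicate number as a block, 4 were higher in PC and 5 in F1CB. In PB vs F1CB and in F1CB vs F1BC none passed in limma, beside 1.42% and 0.149% of all genes. An unadjusted p under 0.05 was reached by 24 and 10 of the 85 (28.2% and 11.8%), beside 15% and 8.08% of all genes. In the other comparisons the share was 43.5% beside 32.7% (PC vs PB), 21.2% beside 19.3% (PC vs F1BC), 29.4% beside 21.7% (PC vs F1CB) and 30.6% beside 19.3% (PB vs F1BC). A relative of thrsp, m1i1b (mid1-interacting protein 1-b), stood outside the list counts. It held 8.65 and 11.6 CPM in PC, 76.1 and 79.8 in PB, 17.97 and 26.2 in F1BC and 15.8 and 15.7 in F1CB. It was higher in PB, with PC minus PB of -2.90 ± 0.41 (limma, adjusted p = 0.000906) and PB minus F1CB of 2.27 ± 0.41 (limma, adjusted p = 0.0178), the second call being lost without any 1 PB or F1CB liver (highest adjusted p = 0.166). Against F1BC the difference was 1.82 ± 0.41 (limma, adjusted p = 0.0413), a call lost under median-of-ratios scaling and without any 1 PB or hybrid liver (highest adjusted p = 0.277, limma). Blue catfish thus had the most m1i1b, whereas thrsp was highest in F1BC.

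**Figure D4:**
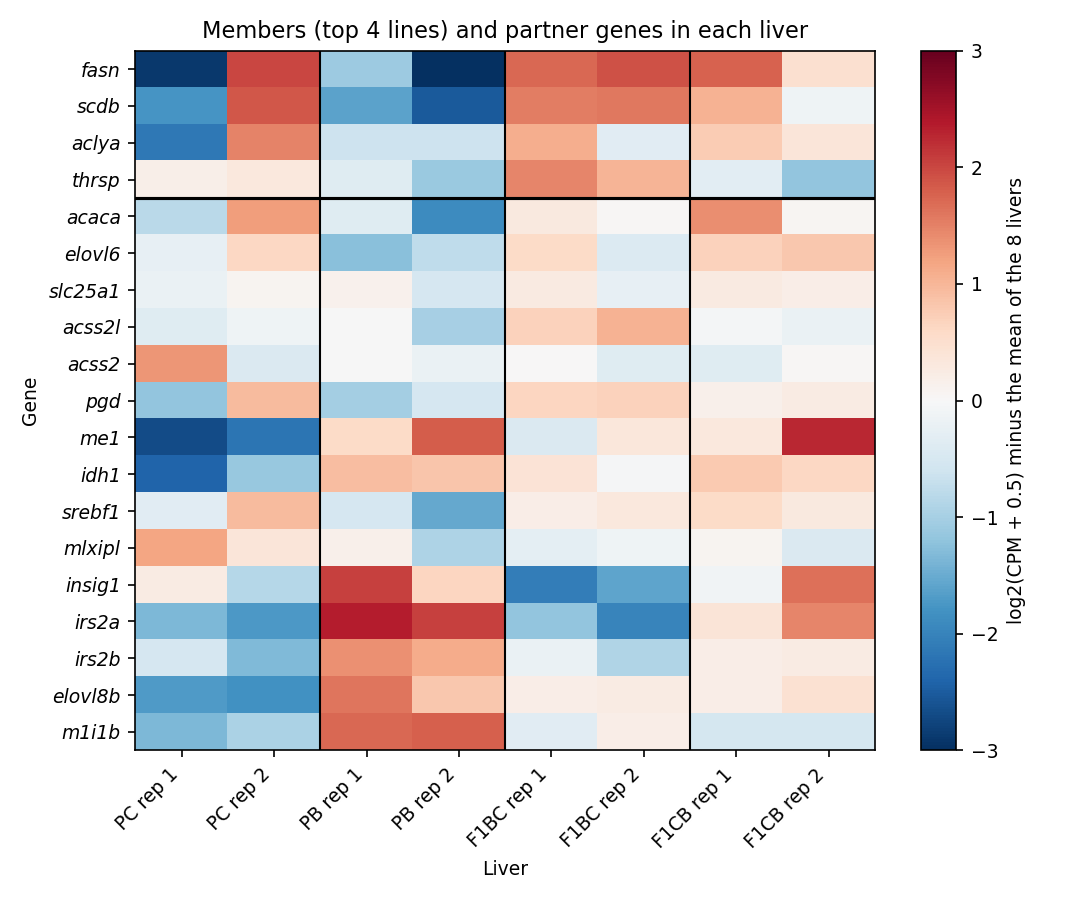
Value of log2(CPM + 0.5) minus the mean of the 8 livers, for the 4 members (above the black line) and 15 partner and named genes, with red above and blue below the gene's own mean and colours limited to 3 on either side. PC replicate 1 and both PB livers are blue for fasn and scdb while all F1BC livers are red, and me1, idh1 and elovl8b are blue in both PC livers.

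With 2 livers a type, an exact permutation test of 1 gene cannot go below p = 0.33, so the limma tests above rest on the spread shared across genes. The list counts moved with single livers: the 18 genes of PC vs PB became 11 without PB replicate 2, the 1 of PC vs F1BC became 4 without PC replicate 2 and 0 without PC replicate 1 or without any 1 hybrid liver, the 4 of PC vs F1CB became 8 without PC replicate 2, 2 without PC replicate 1 or F1CB replicate 1 and 0 without F1CB replicate 2, and the 4 of PB vs F1BC became 1 without PB replicate 2 or either F1BC liver.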

How the data were processed

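Libraries of polyadenylated RNA were sequenced by the authors, trimmed with Trimmomatic, mapped with TopHat2 2.1.1 to the channel catfish genome and counted on gene models with bedtools 2.29.0; the submitters' processing notes also name FastQC 0.11.5 and edgeR. The deposited table, which the study describes as scaled by transcript length too, holds CPM, since columns sum to nearly the same total and, undivided by length, match the authors' log2 CPM column (median difference -0.01). Transcript length, another deposited column, was used for values per kilobase. Depth is unknown. From the CPM, limma 3.58.1 in R 4.3.3 was fitted to log2(CPM + 0.5) of 13420 genes with a mean above 1 CPM in at least 1 type, all 8 livers together, a scale that understates changes of low genes, with an intensity trend; p-values were adjusted by Benjamini-Hochberg over all genes, separately in the 6 comparisons, and a call needed both an adjusted p below 0.05 and a log2 difference above 1.5 in size. The script was tested on simulated data. The members, lists and tests were chosen with earlier results of these data known. Named were the members, fixed partner genes, at most 5 called list genes per comparison with the largest difference and no overlap, the 5 genes most correlated with each member and, of each other list, at most 3 genes that differed most between livers. The genes prss1, PNLIPRP2, col, wnt8b and ndufb10 were chosen after their values were seen. Alternatives were pseudocounts of 0.1 and 1, scaling by the median of ratios, no filter, a filter at 5 CPM, division by length, a replicate block, fits of 2 types only and leaving out each liver. Some genes of the lists are not reported here by name. No sequence was used.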

Additional observations from a re-analysis of the deposited data

Results flagged for a closer look

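For thrsp the reciprocal hybrids lay on opposite sides of channel catfish, in every liver: F1BC minus PC was 1.001 and F1CB minus PC was -0.99 on the log2(CPM + 0.5) scale, from 15822 and 11493 CPM in F1BC, 4613 and 2511 in F1CB and 6418 and 7073 in PC. The difference between these 2 differences was not tested, because thrsp was chosen from these values, and the nduc2 row beside it holds the same pattern.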

How the results depend on the processing

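Leaving out a liver of a type outside a comparison does not change a member's difference, and leaving out a liver within it shifts the difference by a fixed share of that type's gap, so those values show which liver carries a difference and say nothing of its stability. Of the members' differences over 1.5 in size, 4 changed sign, each when 1 channel catfish liver was left out: with each liver left out in turn, fasn ran from -0.40 (without PC replicate 2) to 4.49 in PC vs PB, from -4.70 to 0.18 (without PC replicate 1) in PC vs F1BC and from -4.01 to 0.88 (without PC replicate 1) in PC vs F1CB, and scdb from -3.33 to 0.30 (without PC replicate 1) in PC vs F1BC. Smaller differences of scdb, aclya and thrsp, those whose leave-one-out lines cross 0 in the plot by comparison, also changed sign. Under median-of-ratios scaling, the thrsp difference in PC vs F1BC went from -1.001 to -1.41. Of the differences between livers (replicate 1 minus replicate 2), fasn in F1BC went from -0.20 to -0.39 and scdb in F1BC from -0.04 to -0.24. The difference of aclya between the PB livers went from 0.01 to 0.27. None of these changed sign. For pathway genes that passed the threshold, that scaling gave 2 in PC vs F1BC, 2 in PB vs F1BC and 2 in PB vs F1CB. Fits of the 2 types alone gave 0 in PC vs F1BC, 2 in PC vs F1CB and 2 in PB vs F1CB. With 1 liver left out, the counts ran from 11 to 18 (PC vs PB), 0 to 4 (PC vs F1BC), 0 to 8 (PC vs F1CB), 1 to 4 (PB vs F1BC), 0 to 1 (PB vs F1CB) and 0 to 1 (F1CB vs F1BC). The cause of these shifts was not tested. Pseudocounts and filters on low values kept every count within 1.5 times.

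Livers with the same replicate number share only that number: their deviations had correlations of -0.01 to 0.14 over genes. With the replicate number as a block, the counts were 21 (PC vs PB), 3 (PC vs F1BC), 9 (PC vs F1CB), 4 (PB vs F1BC), 4 (PB vs F1CB) and 1 (F1CB vs F1BC).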

Other observations

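Sterol synthesis, which shares its acetyl-CoA and the SREBP factors with fatty acid synthesis, differed between the parental species. Of 26 genes tested, 8 were higher in PB than in PC by the limma threshold and none lower (30.8%, beside 15.8% of all genes), with a median PC minus PB of -1.19 beside 0.02 over all genes. The 8 were acat2, mvda, idi1, sqlea, lss, tm7sf2, hsd17b7 and ldlra. How this count moves with a liver left out was not tested. PB also lay above the hybrids, with a median of 0.89 in PB minus F1BC and 0.69 in PB minus F1CB. The medians over all genes were 0.35 and 0.18. In each of these comparisons 1 of the 26 passed (3.85%, beside 2.28% and 1.42% of all genes). The mvda row held 0.45 and 1.14 CPM in PC, 9.86 and 10.95 in PB, 0.27 and 2.289 in F1BC and 0.38 and 2.73 in F1CB. Its call was lost without PC replicate 1 or either PB liver (highest adjusted p = 0.0858, limma). The hmgcs1 row, with 56.8 and 25.9 CPM in PC, 77.2 and 35.2 in PB and 7.33 to 21.1 in the hybrids, did not pass in PC vs PB.

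Of 27 genes known from other animals to rise in fasting, 8 passed in PC vs PB (29.6%, beside 15.8% of all genes), 7 of them higher in PB. Of those 7, 5 (pdk2a, igfbp1a, igfbp1b, pnpla2 and sesn1) were also higher in PB than in F1BC, beside 2.28% of all genes, in a comparison that shares the PB livers. In PC vs F1CB, 3 of the 27 passed, all higher in F1CB (pdk2a, igfbp1b and pnpla2, 11.1% beside 2.03% of all genes). In F1CB vs F1BC, 2 passed, each higher in F1CB (pdk2a and igfbp1b, 7.41% beside 0.149%). In PB vs F1CB, only pdk2a passed, higher in PB (3.7% beside 1.42%). The row igfbp1a, a binding protein of insulin-like growth factors, held 186.5 and 46.0 CPM in PC, 2151 and 1005 in PB, 307.4 and 197.2 in F1BC and 386.4 and 589.7 in F1CB. It was higher in PB, with PC minus PB of -3.98 ± 0.60 (limma, adjusted p = 0.00123), also with any 1 liver left out. Its call in PB vs F1BC was lost under median-of-ratios scaling and in 6 of 8 fits with a liver left out (highest adjusted p = 0.261, limma), and that of sesn1 in 3 of 8 (highest adjusted p = 0.272, limma). In PC vs PB the sesn1 call was lost without any 1 PC or PB liver, with a difference of 1.92 to 2.71 in size when 1 liver was left out. The calls of pdk2a, igfbp1b and pnpla2 with a liver left out are not given here. The lipase inhibitor angptl4 held 533.4 and 73.5 CPM in PC, 233.9 and 231.4 in PB, 108 and 49.9 in F1BC and 116.7 and 51.6 in F1CB, and had an r of -0.80 with fasn over the 8 livers, chosen after its values were seen.

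In the other lists, 6 of 19 genes of triglyceride assembly and lipid droplets passed in PC vs PB (31.6%, 2 higher in PC and 4 in PB), as did 5 of 17 from glucose to pyruvate (29.4%, 3 and 2), beside 15.8% of all genes. With 1 liver left out, the call of mogat2 was lost in 4 of 8 fits and that of mttp in 5 of 8 (highest adjusted p = 0.197 and 0.231, limma). The glucose transporter slc2a1b held 41.1 and 273.7 CPM in PC, 2.16 and 2.23 in PB, 92.3 and 70.5 in F1BC and 21.0 and 11.2 in F1CB. It was higher in PC than in PB by 5.31 ± 0.70 (limma, adjusted p = 0.000486) with any 1 liver left out. Between the PC livers it differed in the direction of fasn.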
